A study of Mus musculus with 2 samples.

Results

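The 39 genes of the mouse Hox clusters were measured by total RNA sequencing of embryonic midbrain at day 15.5 of development. The rule that picked them used gene names and no measured value: it took every gene whose Ensembl ID maps to a symbol made of Hoxa, Hoxb, Hoxc or Hoxd and a number, and all 39 were among the 43346 Ensembl genes of the tables, of which 21474 were protein coding. The series had 1 group, midbrain of the strain B6NCrl (B6NCrl is a C57BL/6 substrain), with 2 biological replicates and no other tissue, age or treatment. Replicate 1 pooled 78 embryos and replicate 2 pooled 62, each of both sexes, so neither library gives the spread between single embryos. RNA above 200 nt entered at 10 ng per library, and the tables held 38966386 expected counts in replicate 1 and 40419493 in replicate 2.

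Hox genes encode homeodomain transcription factors that give cells along the body axis their positional identity. They lie in 4 clusters and are transcribed in the order in which they sit on the chromosome, with the low-numbered genes reaching furthest forward. In the neural tube the most anterior Hox domains end within the hindbrain, behind the midbrain, and the rest of the hindbrain and the spinal cord carry nested combinations of higher-numbered genes. Genes with the same number in different clusters are paralogs and often share targets. Where Hox genes are not used, Polycomb complexes hold the clusters silent, and where they are used, PBX and MEIS proteins bind DNA with them.

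The clusters lie on chromosome 6 (Hoxa, 11 genes), chromosome 11 (Hoxb, 10 genes), chromosome 15 (Hoxc, 9 genes) and chromosome 2 (Hoxd, 9 genes). Upstream sequence is shown for Hoxa5, with most of its reads in replicate 1, and for Hoxa11, with all of its reads in replicate 2, so that the CpG content of the DNA where each starts can be seen. Both are 250 bases ending 1 base before the RefSeq start (GRCm38.p6, minus strand, chr6:52204588-52204837 for Hoxa5 and chr6:52245811-52246060 for Hoxa11), with CpG dinucleotides in capitals:
Hoxa5: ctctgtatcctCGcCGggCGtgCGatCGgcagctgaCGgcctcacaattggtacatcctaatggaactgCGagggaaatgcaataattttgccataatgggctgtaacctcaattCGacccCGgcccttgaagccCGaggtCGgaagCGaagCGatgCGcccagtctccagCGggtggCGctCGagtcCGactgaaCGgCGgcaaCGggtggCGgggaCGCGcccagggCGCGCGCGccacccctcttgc
Hoxa11: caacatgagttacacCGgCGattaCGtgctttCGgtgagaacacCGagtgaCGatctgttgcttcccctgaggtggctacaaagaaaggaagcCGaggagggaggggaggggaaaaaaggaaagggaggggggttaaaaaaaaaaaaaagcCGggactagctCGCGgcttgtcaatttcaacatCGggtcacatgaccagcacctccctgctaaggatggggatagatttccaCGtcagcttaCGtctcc

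The Hoxa5 stretch holds 28 CpG and the Hoxa11 stretch 13. Of the 39 genes, 22 matched RefSeq's promoter windows (250 bases before to 50 after the start), with 24 windows among 32851. The median ratio of observed to expected CpG was 0.626 over the Hox windows and 0.384 over all windows, and 12 of the 24 Hox windows (50%) reached 0.6, against 35.8% of all. The joint HOX-PBX motif TGATNNAT, searched on both strands, was found in 4 Hox windows (16.7%), against 8.85% of all windows. The MEIS motif TGACAG was in 2 (8.33%), against 19.2% of all, and the TATA motif TATAAA was in 4 (16.7%), against 13.6% of all. TGATNNAT and TGACAG begin with the same letters, and a window can hold several motifs. Neither printed stretch holds one of them. The counts describe these windows only.

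No Hox gene reached 1 TPM (transcript abundance scaled by effective length and library total) in either library. Among protein coding genes 62.4% were at 1 TPM or more in both libraries, and among all Ensembl genes 35.4%. The median Hox gene was at 0 TPM in replicate 1 and 0.01 TPM in replicate 2, against medians of 5.5 TPM in replicate 1 and 5.33 TPM in replicate 2 over protein coding genes. The highest Hox level was 0.57 TPM in replicate 1 (Hoxb5) and 0.27 TPM in replicate 2 (Hoxb2). In these bulk samples a few cells with much Hox RNA and many cells with little cannot be told apart.

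Counts were nevertheless present for 26 of the 39 genes. A count was recorded for 12 genes in both libraries (30.8%), against 77.7% of protein coding genes. A further 5 genes had counts in replicate 1 only and 9 in replicate 2 only. With a limit of 3 counts in both libraries 6 genes were left, namely Hoxa2, Hoxb2, Hoxb5, Hoxb6, Hoxd3 and Hoxd8, where 74.2% of protein coding genes passed. For Hox genes 3 counts equal 0.0507 to 0.166 TPM in replicate 1 and 0.0398 to 0.172 TPM in replicate 2, depending on the gene's effective length. PCR copies of a molecule could not be told apart in these values, so the limits and the intervals below cover counting error only.

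The other 13 genes were listed at 0 in both libraries (33.3%), against 17.7% of protein coding genes. They were Hoxa4, Hoxa7 and Hoxa13, Hoxb1, Hoxb4, Hoxb8 and Hoxb13, and Hoxc8, Hoxc9, Hoxc10, Hoxc11, Hoxc12 and Hoxc13. A count of 0 allows up to 3 counts by a 1-sided 95% limit, and up to 3.69 by the 2-sided intervals used elsewhere. For these genes 3 counts equal 0.0521 to 0.138 TPM in replicate 1 and 0.0504 to 0.133 TPM in replicate 2. Their deposited posterior mean TPM, a second estimate that does not go to 0, lay between 0.02 and 0.3 in replicate 1 and between 0.02 and 0.29 in replicate 2. Thus all of Hoxc from the 8th paralog group upward had no read, while every one of the 9 Hoxd genes had at least 1.

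**Figure D1:**
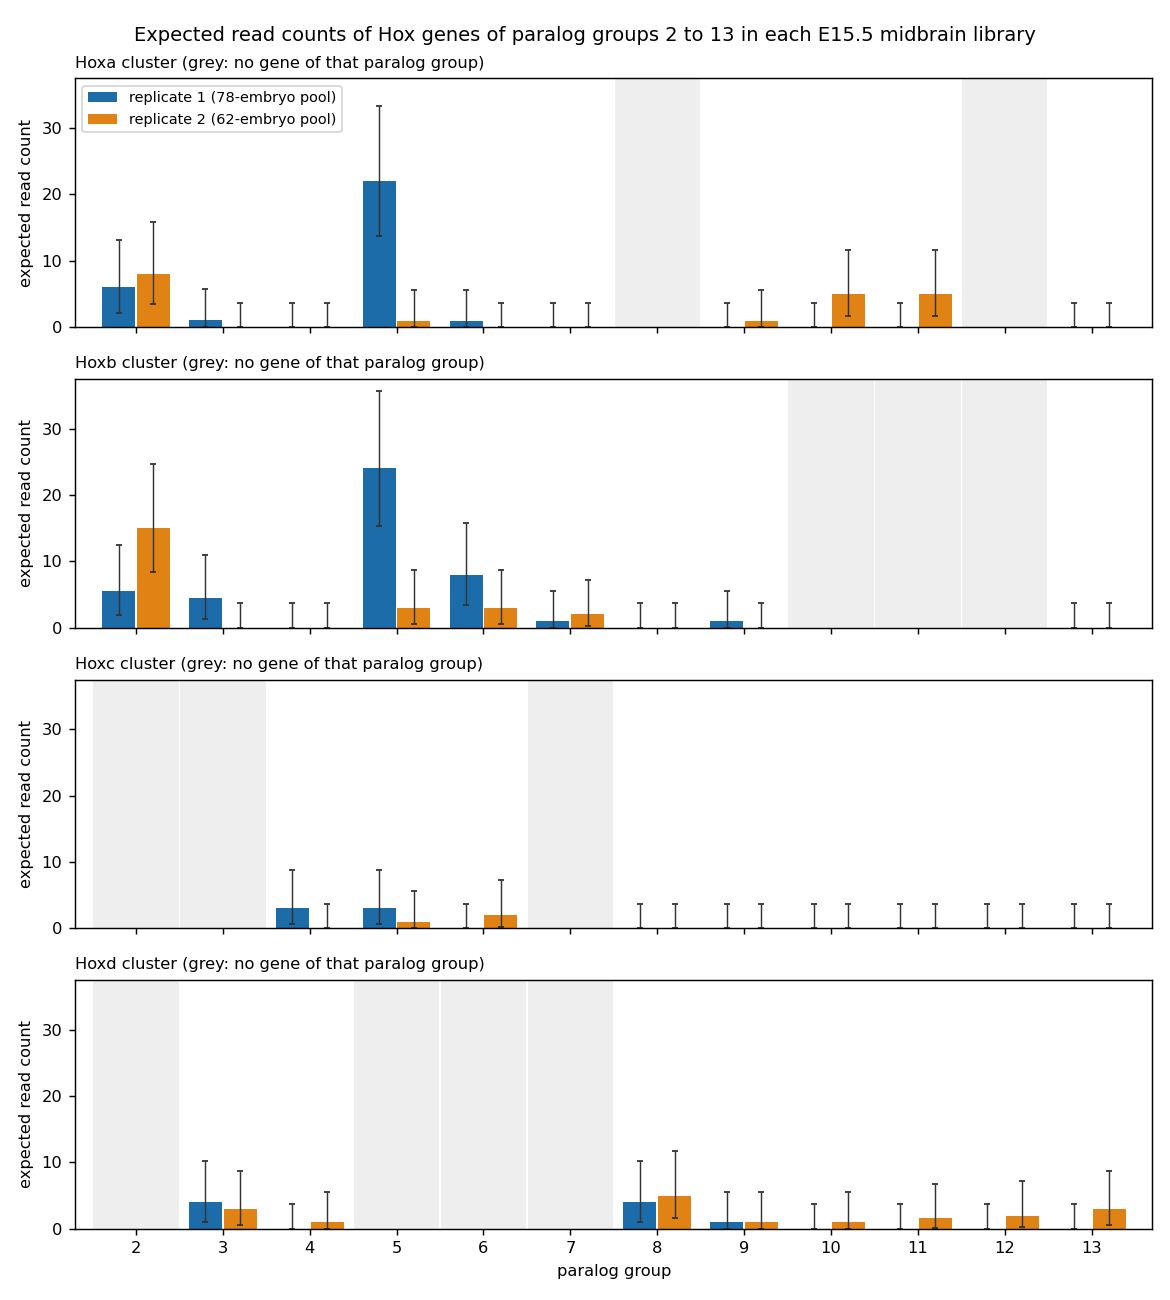
Expected read counts (y axis) of the Hox genes of paralog groups 2 to 13 (x axis) in the 4 clusters. Replicate 1 is the left bar and replicate 2 the right bar of each pair, with exact 95% Poisson intervals, and Hoxa5 and Hoxb5 stand out in replicate 1 with 22 and 24 counts.

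Among the anterior genes, paralog groups 1 to 3, which in the embryo pattern the hindbrain and its neural crest, Hoxa2, Hoxb2 and Hoxd3 are described here, each with a mean of 3 or more counts. Hoxb2, which Egr2 switches on in hindbrain segments, had 5.51 counts in replicate 1 and 15 in replicate 2, or 0.14 and 0.27 TPM. The ratio of replicate 1 to replicate 2 was 0.413 (95% counting interval 0.131 to 1.13), and the exact binomial test gave an adjusted p of 0.22 with Benjamini-Hochberg adjustment over all genes tested. The libraries could not be separated for Hoxb2 at this depth. Hoxa2, whose domain extends furthest forward of all Hox genes in the hindbrain, had 6 counts in replicate 1 and 8 in replicate 2, or 0.16 and 0.21 TPM (ratio 0.774, interval 0.221 to 2.54). Hoxa2 and Hoxd8 had ratios near 1, with intervals that include it.

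Hoxd3 had 4 counts in replicate 1 and 3 in replicate 2, but 0.08 and 0.17 TPM. The order of its TPM is opposite to that of its counts because the reads were assigned to the transcript Hoxd3-201 in replicate 1, with an effective length of 2193 nt for the gene, and to the 822-nt Hoxd3-204 in replicate 2, with an effective length of 723 nt. For a gene with so few reads the TPM follows the assigned transcript as much as the reads. Hoxb1, which marks 1 hindbrain segment, had no read in either library.

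Among the central genes, groups 4 to 8, which mark the caudal hindbrain and the cervical and thoracic spinal cord, the reads of replicate 1 were concentrated in group 5. Hoxb5 had 24 counts in replicate 1 (interval 15.4 to 35.7) and 3 in replicate 2 (0.619 to 8.77), or 0.57 and 0.07 TPM. Hoxa5, its paralog, had 22 counts in replicate 1 (13.8 to 33.3) and 1 in replicate 2 (0.0253 to 5.57), or 0.53 and 0.02 TPM. Replicate 1 was the higher for both genes, and these intervals cover counting error only.

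Hoxa5 was 22.7 times as high in replicate 1 as in replicate 2 (interval 3.67 to 937, exact binomial test, adjusted p = 4.7e-05). Hoxb5 was 8.26 times as high (2.51 to 42.8, exact binomial test, adjusted p = 0.00035). With 0.5 added to each count, which lowers the fold, Hoxa5 had a log2 ratio of 3.95 and Hoxb5 of 2.85. These were the 2 Hox genes past both thresholds (adjusted p under 0.05 and at least 2-fold) of the 3 that had the mean of 10 counts needed for the test; the other 36 were not tested. A Hox gene could enter the test through the library in which it was high. Of all 18269 genes tested, 298 passed (1.63%), of which 164 were higher in replicate 1 (0.898%) and 134 in replicate 2 (0.733%). Among the 977 genes with a mean of 10 to 15 counts, where Hoxa5, Hoxb5 and Hoxb2 lie, 2.97% were higher in replicate 1 by the same rule. The p-values compare these 2 libraries and not conditions, and there is no further library to check the difference with.

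Read assignment was plain for both genes. Hoxa5-201 and Hoxb5-201 took 100% of their gene's abundance in each library, and the posterior SD of the count was 0 for both. No other annotated exon overlaps Hoxa5, and Hoxb5 shares 100 bases (3.59% of its exon bases) with Hoxb5os on the opposite strand. The third gene of the group, Hoxc5, had 3 counts in replicate 1 and 1 in replicate 2. Group 5 as a whole had 49 counts in replicate 1 and 5 in replicate 2.

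Hoxb6, next to Hoxb5 on the chromosome, had 8 counts in replicate 1 and 3 in replicate 2, or 0.28 and 0.1 TPM (ratio 2.75, interval 0.66 to 16.1). Hoxd8, by contrast, had 4 counts in replicate 1 and 5 in replicate 2, or 0.07 and 0.08 TPM (ratio 0.826, interval 0.164 to 3.84). Neither difference is larger than counting error. Hoxa4, Hoxa7, Hoxb4, Hoxb8 and Hoxc8, which belong to the same part of the axis, had no read in either pool.

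None of the posterior genes, groups 9 to 13, which pattern the lumbar and sacral cord, the limbs and the urogenital tract, reached a mean of 3 counts. Those with reads are named here after their values were seen. Hoxa10 and Hoxa11, which act in limb and uterus, each had 0 counts in replicate 1 and 5 in replicate 2 (0.13 TPM for Hoxa10 and 0.1 TPM for Hoxa11 in replicate 2). Hoxd10, Hoxd11, Hoxd12 and Hoxd13, the distal limb genes of that cluster, had 0 in replicate 1 and 1, 1.7, 2 and 3 in replicate 2. Every read of groups 10 to 13 thus fell in replicate 2.

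Group 9 had 2 counts in replicate 1 and 2 in replicate 2, while the 12 genes of groups 10 to 13 had 0 in replicate 1 and 17.7 in replicate 2, a boundary drawn after the values were seen that supports no comparison of its own. Of all 412 genes with 5 rounded counts in total, 36 (8.74%) had all 5 in replicate 2, as Hoxa10 and Hoxa11 did. None of these genes had enough reads for the test of single genes. For Hoxa11 the count cannot be assigned with certainty, since Hoxa11os covers 35% of its exon bases on the opposite strand and the use of strand is not given.

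The 18 genes with reads but a mean under 3 counts, those of groups 10 to 13 included, had at most 5 counts in 1 library. Of the anterior ones Hoxb3 had 4.47 counts in replicate 1 and 0 in replicate 2, Hoxa3 had 1.07 and 0, and Hoxd1 had 1 in each. The others of the central and 9th groups had between 0 and 3 counts in either library, with Hoxc4 at 3 in replicate 1 and 0 in replicate 2. These values are at the level where 1 fragment decides whether a gene is listed.

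Summed over the 39 genes, replicate 1 had 91.05 counts (95% interval 73.3 to 112) and replicate 2 had 70.7 (55.2 to 89.2), or 2.39 CPM in replicate 1 and 1.79 CPM in replicate 2 of the counts on Ensembl genes. The ratio, scaled by TMM library size, was 1.32 (0.959 to 1.83), within counting error. With library sizes from the ERCC spike-ins the ratio was 1.4 (1.02 to 1.94), which excludes 1. The genes that made up the sum were not the same in proportion. Hoxa5 and Hoxb5 held 46 of the counts in replicate 1 (50.5%) and 4 in replicate 2 (5.66%), and without them the sums were 45.05 in replicate 1 and 66.7 in replicate 2.

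By class, the anterior genes had 23.05 counts in replicate 1 and 33 in replicate 2 (ratio 0.719, interval 0.403 to 1.26). The 15 central genes had 66 in replicate 1 and 18 in replicate 2 (ratio 3.78, 2.22 to 6.77). The 16 posterior genes had 2 in replicate 1 and 19.7 in replicate 2 (ratio 0.103, 0.0117 to 0.425). Central genes therefore held 72.5% of Hox counts in replicate 1 and 25.5% in replicate 2, and posterior genes 2.2% in replicate 1 and 27.9% in replicate 2. Without Hoxa5 and Hoxb5 the central sums were 20 in replicate 1 and 14 in replicate 2, so those genes carry most of the central difference. The libraries differ over all genes by more than counting noise, so these intervals are narrower than the spread between pools.

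By cluster, Hoxa had 31.07 counts in replicate 1 and 26 in replicate 2, from 8 of its 11 genes. Hoxb had 43.98 in replicate 1 and 23 in replicate 2, from 6 of 10 (ratio 1.97, interval 1.17 to 3.43). Without Hoxb5 the Hoxb sums were 19.98 in replicate 1 and 20 in replicate 2 (ratio 1.03, 0.527 to 2.02). Hoxc had 6 in replicate 1 and 3 in replicate 2, from 3 of 9, and Hoxd had 10 in replicate 1 and 18.7 in replicate 2, from all 9. Within Hoxa the central genes had 23 counts in replicate 1 and 1 in replicate 2, while the posterior ones had 0 in replicate 1 and 11 in replicate 2. The near-equal Hoxa sums thus had unlike class shares in the 2 pools.

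**Figure D2:**
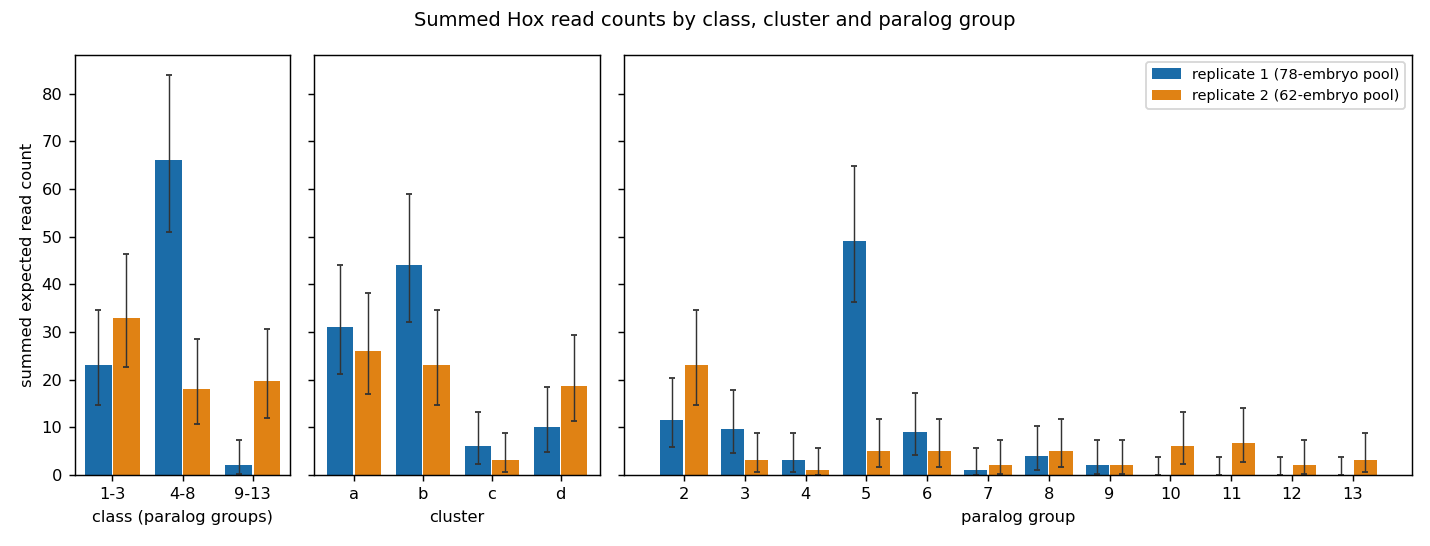
Summed expected read counts (y axis) by class of paralog groups, by cluster and by single paralog group from 2 to 13, with replicate 1 left and replicate 2 right in each pair and exact 95% Poisson intervals. Groups 4 to 8 hold 66 counts in replicate 1 and 18 in replicate 2, groups 9 to 13 hold 2 and 19.7, and groups 10 to 13 have none in replicate 1.

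Overlapping genes touch part of these counts. Of the 39 genes 16 share exon bases with another gene, 10 of them with a gene on the opposite strand, and 23 share none. Hoxb2 shares 953 bases (27.3% of its exon bases) with the antisense gene Hoxb3os, which itself had 6.02 counts in replicate 1 and 0 in replicate 2. The assignment of the few Hoxb2 reads to transcripts also differed between the pools, with the coding Hoxb2-201 at 87.5% of the gene's abundance in replicate 1 and 45.72% in replicate 2. The rest, 12.5% in replicate 1 and 54.28% in replicate 2, was assigned to Hoxb2-202, which is annotated with a retained intron. These shares rest on 4.29 counts for Hoxb2-201 and 1.22 for Hoxb2-202 in replicate 1, and on 4.47 and 10.53 in replicate 2. In 6 genes, Hoxa3, Hoxa11, Hoxb2, Hoxb3, Hoxd3 and Hoxd11, the posterior SD of the count was over 10% of its mean in at least 1 library, so their values rest partly on the authors' assignment.

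The clusters also hold noncoding genes, among them the miR-10 and miR-196 families, which target Hox transcripts. Their mature 5′ arms, from RefSeq (GRCm38.p6), are printed with the seed (bases 2 to 8) in capitals, since the seed is what the members of a family share:
mmu-miR-10a-5p: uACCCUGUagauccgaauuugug
mmu-miR-10b-5p: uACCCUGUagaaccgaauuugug
mmu-miR-196a-5p: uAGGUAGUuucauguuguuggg
mmu-miR-196b-5p: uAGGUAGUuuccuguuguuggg
Both miR-10 forms share the seed ACCCUGU, and both miR-196 forms share AGGUAGU. The genes Mir10a, Mir10b, Mir196a-1, Mir196a-2 and Mir196b were listed at 0 in both libraries. That says nothing of the mature miRNAs, since the hairpins are 68 to 110 nt long, RNA above 200 nt was sequenced, and the effective lengths were 0 to 11 nt.

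Of 45 genes inside the clusters that are not Hox genes themselves, 32 were at 0 in both libraries, where 40.6% of all Ensembl genes were. None had a mean of 10 counts. Of the 45, 12 had an effective length under 20 nt in replicate 1, so a 0 says little for them. Together the 45 genes had 34.79 counts in replicate 1 and 11.36 in replicate 2. Those named here were picked after their values were seen. Hotairm1, a noncoding RNA of the Hoxa cluster, had 7 counts in replicate 1 and 6 in replicate 2. Gm11539, a processed pseudogene in the Hoxb interval, had 10.84 in replicate 1 and 1.06 in replicate 2. Hotair, the Hoxc antisense RNA, was at 0 in both. Most genes inside the clusters, Hox or not, thus had few or no reads, which for the shortest ones says little of their transcription.

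Most of the nearest coding genes on either side of the clusters were transcribed, but some lie far off, up to 910371 bases (Nfe2l2). Of the 3 nearest coding genes on each side of the 4 clusters, 20 of 24 were at 1 TPM or more in both libraries, against 62.4% of protein coding genes, and none passed the test between the pools. In replicate 1 they had a median of 40.6 TPM, and in replicate 2 of 42.9 TPM. Mtx2, a mitochondrial import gene 60661 bases beyond Hoxd, had 110.96 TPM in replicate 1 and 121.4 TPM in replicate 2. Cbx1 and Cbx5, heterochromatin proteins of the HP1 family, lie 420871 bases beyond Hoxb and 154692 bases beyond Hoxc. They were at 57.84 and 117.36 TPM in replicate 1 and 62.25 and 121.18 TPM in replicate 2. These 3 genes were above every Hox gene in both libraries.

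The 4 flanking genes below 1 TPM in at least 1 library were Calcoco2, Ttll6 and the Evx genes. All 4 lie within 82352 bases of a cluster (Calcoco2), with Ttll6 at 28865 bases. Evx1 and Evx2, homeobox genes of the spinal cord and brainstem that border the clusters, lie 52618 bases beyond the Hoxa13 end and 8753 bases beyond the Hoxd13 end. Evx1 had 84 counts in replicate 1 and 53 in replicate 2, or 1.29 and 0.79 TPM. Evx2 had 41 in replicate 1 and 25 in replicate 2, or 0.43 and 0.25 TPM. Each Evx gene had more reads than any Hox gene in the same library, and neither difference between pools reached 2-fold (log2 ratios 0.7 and 0.75).

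**Figure D3:**
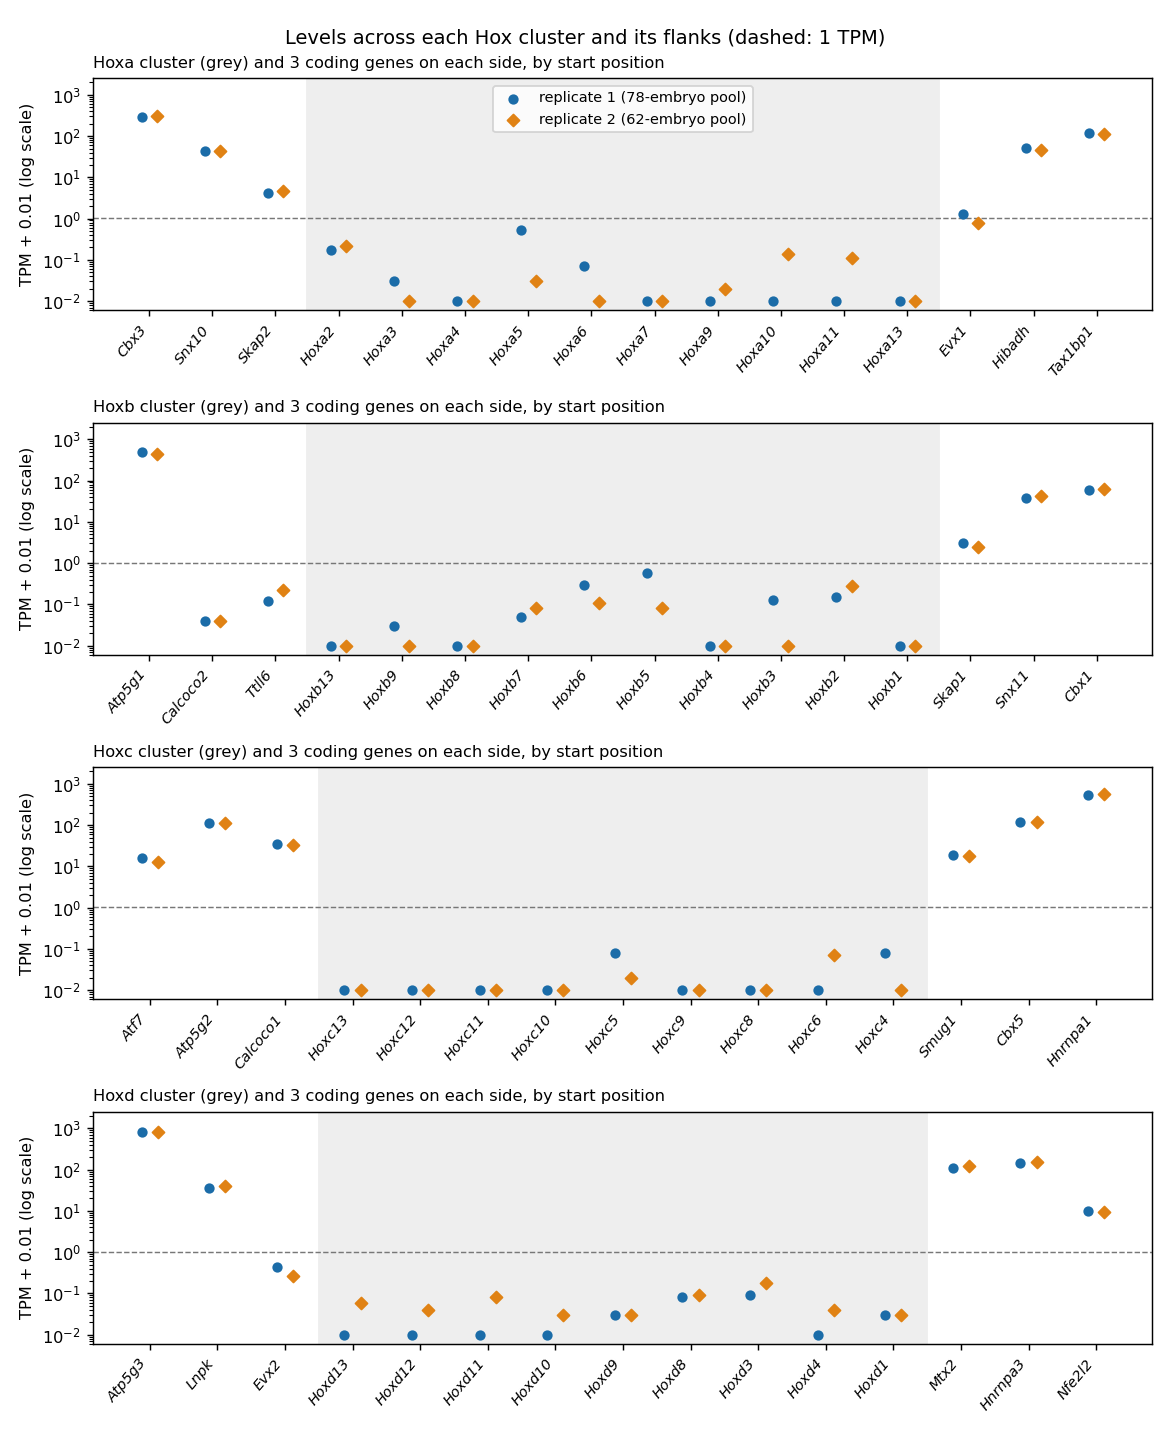
TPM plus 0.01 on a log axis for the Hox genes plotted (grey area) and the 3 nearest coding genes on each side, ordered by start position, in replicate 1 (circles) and replicate 2 (diamonds). All Hox genes plotted lie below the dashed line at 1 TPM, and 20 of the 24 flanking genes lie above it in both libraries.

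Transcripts of the factors that work with and on Hox genes were measured for comparison. Of the 9 TALE cofactor genes (Pbx, Meis and Pknox families) all 9 were expressed (1 TPM or more in both libraries, as 62.4% of protein coding genes were), with a median of 47.7 TPM in replicate 1 and 50.4 TPM in replicate 2. Meis3 was highest at 135 ± 0.0283 TPM (mean ± SD, n = 2, as in the rest of the lists), before Pbx3 at 84.7 ± 1.94 TPM. All 25 Polycomb and trithorax genes were expressed by the same measure, led by Rbbp4 (215 ± 4.94 TPM), Rbbp7 (166 ± 6.32 TPM) and Rnf2, the ubiquitin ligase of Polycomb complex 1 (92.8 ± 0.877 TPM). None of these genes passed the test between pools.

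Of 22 genes that act upstream of Hox genes, 13 were expressed and none passed the test. The retinoid pathway was represented by Rxrb (52.5 ± 0.622 TPM), a retinoid receptor, and the retinoic acid binding proteins Crabp2 (39.6 ± 4.48 TPM) and Crabp1 (19.4 ± 1.47 TPM). Cdx2 and Cdx4, which open the clusters in the tail bud, and Cyp26a1, which degrades retinoic acid, were at 0 in both libraries. Cyp26b1, of the same enzyme family, had 15.34 TPM in replicate 1 and 10.2 TPM in replicate 2. Of 10 related homeobox genes 2 were at 1 TPM or more in both, Gbx2 (17.4 ± 3.09 TPM) and Gsx1 (4.99 ± 0.721 TPM), and Evx1 averaged 1.04 ± 0.354 TPM. None of them passed.

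Of 12 homeobox genes of the midbrain 11 were expressed, against 62.4% of protein coding genes (summed level 187 TPM in replicate 1 and 207.8 TPM in replicate 2). With no other tissue in the series, these levels do not test the label midbrain. En2 was the gene left out, at 1.21 TPM in replicate 1 and 0.76 TPM in replicate 2. None passed both thresholds between pools. Below 2-fold, some had an adjusted p under 0.05 in either direction, such as En1 (log2 ratio 0.44) and Lmx1a (-0.42). Otx2, which is transcribed in forebrain and midbrain and ends at the hindbrain border, had 66.2 ± 0.177 TPM, and Lhx1 had 32.8 ± 3.57 TPM.

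Hox genes are transcribed behind the midbrain and in many other tissues, so markers of those are given beside the Hox counts. Of 12 rhombomere and pontine genes 5 were expressed, among them Tph2 (4.87 ± 1.56 TPM) and Slc6a4 (4.67 ± 0.0354 TPM), and the sums were 26.97 TPM in replicate 1 and 22.13 TPM in replicate 2. The noradrenaline genes Dbh (2.95 TPM in replicate 1 and 0.52 TPM in replicate 2) and Slc6a2 (2.85 and 0.72 TPM) and the hindbrain gene Tlx3 (2.66 and 0.93 TPM) passed and were higher in replicate 1, as 0.898% of all genes were. Egr2, the upstream factor of Hoxa2 and Hoxb2, had 15 counts in replicate 1 and 26 in replicate 2 and did not pass. Tph2 was higher in replicate 2 with an adjusted p under 0.05 but below 2-fold (222 counts in replicate 1 and 364 in replicate 2, log2 ratio -0.67). Slc6a4 was nearly equal in the pools (log2 ratio 0.01).

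Of 12 spinal cord and motor neuron genes 9 were expressed (sums 190.8 TPM in replicate 1 and 175.2 TPM in replicate 2), led by Foxp1 (68.7 ± 0.877 TPM), Pou4f1 (55.7 ± 2.97 TPM) and Isl1 (26.5 ± 2.02 TPM), which midbrain neurons also use. Chat, which makes acetylcholine, was the gene of this list that passed, lower in replicate 1 (0.16 TPM in replicate 1 and 0.44 TPM in replicate 2). Isl1 (log2 ratio 0.43) and Prph (1 after rounding) were higher in replicate 1 with an adjusted p under 0.05 but fell short of 2-fold. Isl2 leaned the same way (log2 ratio 0.56) and met neither threshold. The motor neuron gene Mnx1 had 2 counts in replicate 1 and 0 in replicate 2. Of 10 neural crest and ganglion genes 3 were expressed and none passed (sums 16.07 TPM in replicate 1 and 11.45 TPM in replicate 2), with Prph (5.98 ± 2.84 TPM), Sox10 (2.38 ± 0.0424 TPM) and Avil (2.21 ± 0.636 TPM) on top.

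Liver, granulocyte and muscle genes passed on the same side as Hoxa5 and Hoxb5. Of 10 liver genes 4 were expressed and 7 passed, all higher in replicate 1, among them Afp (7.09 TPM in replicate 1 and 0.19 TPM in replicate 2), Alb (4.6 and 0.09 TPM), Apoa2, Serpina1b, Fgb, Ahsg and Ambp. The liver sums were 306.1 TPM in replicate 1 and 305.1 TPM in replicate 2, made mostly of Ttr (253 ± 22.6 TPM), a choroid plexus gene too, before Trf (31 ± 2.67 TPM) and Apoa2 (6.14 ± 4.8 TPM). Of 10 leukocyte and progenitor genes 7 were expressed (sums 113.8 TPM in replicate 1 and 86.14 TPM in replicate 2), led by Kit (31.1 ± 1.08 TPM), Lyz2 (25.2 ± 3.01 TPM) and Cd34 (22.9 ± 0.177 TPM). The granulocyte genes S100a8 (15.78 TPM in replicate 1 and 1.84 TPM in replicate 2), S100a9 (9.48 and 1.71 TPM), Mpo (0.99 and 0.09 TPM) and Elane (1.04 and 0 TPM) passed and were higher in replicate 1. Itgam, also a myeloid gene, went the other way with an adjusted p under 0.05 but just below 2-fold (56 counts in replicate 1 and 115 in replicate 2, log2 ratio -0.99). Ptprc and Spi1 had log2 ratios of -0.01 and 0.06.

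Of 10 skeletal muscle genes 3 were expressed (sums 57.18 TPM in replicate 1 and 12.76 TPM in replicate 2). Actc1 (44.81 TPM in replicate 1 and 2.44 TPM in replicate 2), Myh8 (1.46 and 0.72 TPM) and Tnni1 (1.55 and 0.46 TPM) passed and were higher in replicate 1, Acta1 (5.46 ± 0.0354 TPM) and Tnnt1 (3.43 ± 0.134 TPM) did not pass, and the muscle-determining gene Myod1 had 3 counts in replicate 1 and 5 in replicate 2. Of 10 skin genes 6 were expressed (sums 28.16 TPM in replicate 1 and 42.01 TPM in replicate 2), led by Krt1 (8 ± 0.735 TPM), Krt10 (6.93 ± 0.453 TPM) and Cdh1 (6.29 ± 0.955 TPM). The basal keratins Krt5 (0.08 TPM in replicate 1 and 4.72 TPM in replicate 2), Krt14 (0.21 and 5.02 TPM) and Krt15 (0.35 and 3.42 TPM) passed and were lower in replicate 1, as 0.733% of all genes were. Cdh1 and Trp63 leaned the other way below 2-fold, with log2 ratios of 0.34 and 0.36. The adjusted p was under 0.05 for Cdh1 but not for Trp63.

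In 4 further lists no gene passed. Of 11 cartilage and limb genes 4 were expressed (sums 76.32 TPM in replicate 1 and 69.83 TPM in replicate 2), led by Sox9 (37.7 ± 3.87 TPM), Col2a1 (28.5 ± 0.53 TPM) and Prrx1 (3.23 ± 0.361 TPM). The limb genes Tbx5 and Tbx4 had 2 and 19 counts in replicate 1 and 3 and 26 counts in replicate 2. Of 10 kidney and gut genes Pax8 was expressed (2.8 ± 0.255 TPM), before Fabp1 (0.375 ± 0.00707 TPM) and Fabp2 (0.31 ± 0.438 TPM), with Cdx2, Umod and Pdx1 at 0 and sums of 3.86 TPM in replicate 1 and 3.93 TPM in replicate 2. All 10 meningeal and fibroblast genes were expressed, led by Col3a1 (153 ± 13.3 TPM), Col1a2 (78 ± 7.06 TPM) and Col1a1 (71.8 ± 6.37 TPM), with sums of 419.5 TPM in replicate 1 and 370.8 TPM in replicate 2. All 10 endothelial genes were too, led by Cldn5 (97.7 ± 14.9 TPM), Kdr (20.5 ± 0.134 TPM) and Sox18 (15.5 ± 0.933 TPM), with sums of 208.6 TPM in replicate 1 and 180.5 TPM in replicate 2.

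The higher counts of Hoxa5 and Hoxb5 in replicate 1 stood beside 7 of 10 liver, 4 of 10 leukocyte, 3 of 12 rhombomere and pontine and 3 of 10 muscle genes that were higher in that pool. The lower posterior counts in replicate 1 stood beside 3 of 10 skin genes and 1 of 12 spinal cord and motor neuron genes lower there. Other genes of these lists did not pass or leaned the other way. Over all genes tested, 0.898% were higher in replicate 1 and 0.733% were lower there by the same rule. The lists were chosen with earlier results of these data known, so their shares cannot be weighed against those of all genes. The part of these markers in the Hox counts was not tested.

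**Figure D4:**
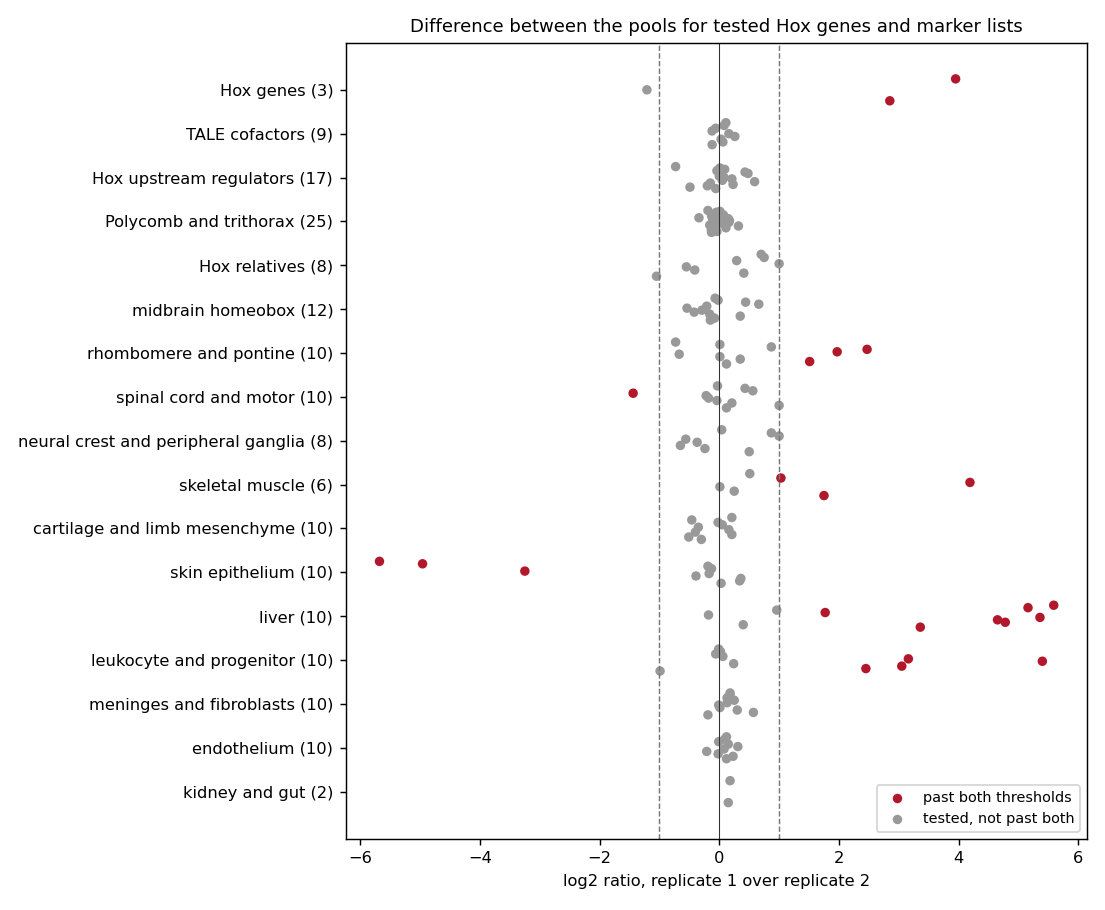
Log2 ratio of replicate 1 over replicate 2 (x axis) for the 3 tested Hox genes and the tested genes of each list (y axis, number tested in brackets), 1 point per gene. Red points pass both thresholds, dashed lines mark 2-fold, and Hoxa5 lies at 3.95 and Hoxb5 at 2.85.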

How the data were processed

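Total RNA of 2 pools of E15.5 midbrain was analysed, as 1 group of 2 biological replicates. Per the file headers, the authors deposited expected counts, TPM (scaled by effective length and library total) and FPKM per gene, posterior means of the same quantities, and each transcript's percent share of its gene. The build was mm10 and the annotation GENCODE M4, as the authors' deposited notes state. Which aligner and counting tool were used, and whether strand was, is not given in the sources used here. Coordinates, biotypes and transcript names came from GENCODE M21 on the same build, and all 39 Hox genes matched by gene ID.

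Rows that were neither Ensembl genes nor ERCC spike-ins took 5.5e-05% of expected counts in replicate 1 and 3e-05% in replicate 2, spike-ins took 2.3% and 2.42%, and all of these stayed out of library sizes and tests. edgeR's quasi-likelihood test could not be fitted, since 1 group of 2 libraries leaves no comparison with residual degrees of freedom. The pools were compared with a binomial test (exact, two-sided) for each gene, taking rounded expected counts, with TMM library sizes (edgeR 4.0.16, R 4.3.3) and Benjamini-Hochberg adjustment over the 18269 genes that averaged 10 or more counts. The thresholds were an adjusted p under 0.05 and a ratio of at least 2-fold. Log2 ratios added 0.5 to each rounded count. The test was checked on counts simulated with Poisson noise only. The real libraries differ by more than that, so the check does not cover false calls in these data. Other steps ran in Python 3.11.15 with scipy 1.17.1, pandas 2.3.3, numpy 2.4.6 and matplotlib 3.10.9, and DESeq2 1.42.0 gave alternative size factors.

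The libraries differed beyond counting noise, with a chi-square of 6.66 per gene, so they are not 1 library deposited in duplicate. Intervals are 95% exact Poisson or binomial intervals. The Hox genes and the 16 gene lists were chosen with earlier results of these data known. Hox genes that averaged 3 or more counts are named with full values, and of each list the 3 highest by mean TPM and any that passed the test; a few genes that this rule names are not reported here. Alternatives were other library sizes, count filters, posterior means, edgeR's exact test, other TPM thresholds, FPKM and each library alone.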

Additional observations from a re-analysis of the deposited data

How the results depend on the processing

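Hoxa5 and Hoxb5 passed in every one of the 8 alternatives run (other library sizes, filters, posterior mean counts, no fold threshold, edgeR's exact test), with adjusted p from 1.6e-05 to 0.0013 for Hoxa5 and from 0.00015 to 0.0088 for Hoxb5. All 8 reuse the same 2 libraries. edgeR's exact test took 1 common dispersion (spread beyond counting error) of 0.00423, estimated from these libraries over all genes tested. The alternatives therefore do not show how the 2 genes would vary over further pools. The summed Hox ratio of replicate 1 over replicate 2 stayed between 1.32 and 1.4, but its interval excludes 1 with spike-in library sizes (1.02 to 1.94) and not with TMM (0.959 to 1.83) or the other 3 settings. Over all genes 298 passed, against 3534 with no fold threshold and 158 with edgeR's exact test. No Hox gene was expressed at 1 TPM, against 3 at 0.1 TPM and 6 at 3 or more counts in both libraries, and 0 with either library alone. The mean of log2(TPM + 1) over the 39 genes was 0.0657 ± 0.0114 (SD, n = 2), 0.0576 to 0.0737 with 1 library left out, -2.91 as log2(TPM + 0.1), 0.175 from posterior means and 0.228 over genes averaging 3 or more counts. Shares of summed Hox TPM with 1 library left out ranged from 24.5% to 47.6% for anterior genes, 26.5% to 73.8% for central, 1.75% to 25.9% for posterior, and 34.5% to 35.5%, 30.7% to 51.1%, 4.22% to 6.11% and 8.3% to 29.5% for Hoxa, Hoxb, Hoxc and Hoxd. From posterior means Hoxa took 38.9% (35% in the deposited TPM) and Hoxc 12.6% (5.17%), since posterior means give unread genes a level above 0. Library sizes from spike-ins shifted the log2 ratio of the library sizes by -0.086. Depth sets the limit: 36 Hox genes had too few reads for a test, and values rest on 1 to 24 counts.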
